A study of Mus musculus with 8 samples.

Results

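The GIMAP genes (GTPases of immunity-associated proteins) are a family of small GTP-binding proteins found mainly in lymphocytes. The members described here were the rows of the deposited count table whose gene symbol was Gimap1, Gimap3, Gimap4, Gimap5, Gimap6, Gimap7, Gimap8 or Gimap9. All 8 were found among the 24976 genes of the table, and all 8 passed the low-count filter that left 13073 genes for testing.

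GIMAP proteins carry a GTP-binding domain of the AIG1 type, and several are anchored in the membranes of intracellular compartments. In mice and rats the loss of single members shortens the life of resting T cells: rats without intact Gimap5 lack most peripheral T cells, and mice without Gimap1 lose mature T and B cells. In quiescent lymphocytes the family is therefore studied together with the interleukin-7 receptor, the BCL2 proteins and the genes of the naive state.

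The libraries were bulk RNA-seq of CD8 T cells that had infiltrated tumours of B16-OVA, mouse melanoma cells engineered to make ovalbumin. Tumours were grown under the skin of Rag2-/- mice, which lack their own T and B cells, and donor CD8 T cells were transferred after 10 days. Infiltrating CD3e+CD8+ cells were sorted 10 days after the transfer, and per the labels each sample came from 1 implanted mouse. The design asked how cells that lack the transcription factors Nr4a1 and Nr4a2 differ from wild type ones in the Tim3+ and Tim3- fractions of the PD1+ cells.

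The 4 groups, with 2 libraries each, were dKO PD1+Tim3+, dKO PD1+Tim3-, WT PD1+Tim3+ and WT PD1+Tim3-. The dKO donors carried Nr4a1 flox/flox and Nr4a2 flox/flox alleles, a Cre driven by Cd8 and the OT-I T cell receptor transgene (Tg/+), which recognises an ovalbumin peptide. WT donors are given only as WT, and the labels do not say whether they also carried OT-I. All groups shared the Rag2-/- host and the PD1+ gate. The labels give no ages.

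Depth ranged between 1944999 and 13418762 counts per library, and dKO PD1+Tim3- replicate 2 was the shallowest. Havcr2, which encodes the Tim3 protein of the sort, was higher in PD1+Tim3+ than in PD1+Tim3- libraries by 4.03 ± 0.19 on the log2 scale among the dKO libraries and by 3.82 ± 0.18 among the WT libraries. The targeted genes did not fall with the label. Nr4a1 averaged 1184 CPM (counts scaled to library size) in dKO against 796 CPM in WT among PD1+Tim3+ libraries, and 1410 CPM in dKO against 901 CPM in WT among PD1+Tim3- libraries. Nr4a2 averaged 969 CPM in dKO against 1007 CPM in WT among PD1+Tim3+ libraries, and 933 CPM in dKO against 974 CPM in WT among PD1+Tim3- libraries. Which exons the floxed alleles remove was not known here, so counts over a whole gene may not check the deletion, and "dKO" below means the libraries labelled dKO. Of 6 CD8 T cell markers 5 had a row in the table, and all 5 were detected, with summed levels between 2646 and 3960 CPM. These and the marker levels that follow use library totals without scaling factors. Of the genes of other cells, Ms4a1 (B cells) and Tek (endothelium) were at 0, but Cd79b reached 1.54 to 4.63 CPM, Pecam1 20.1 to 36.7 CPM and the melanoma gene Tyr 14.6 to 17.3 CPM over the libraries. The rest of these lists was lower. Among melanoma genes Mlana reached at most 0.514 CPM, Tyrp1 0.380, Dct 1.04 and Pmel 3.58. Among endothelial genes Cdh5 reached at most 0.224 CPM and Kdr 3.75, and the B cell gene Cd79a reached 1.81.

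All members lie in 1 cluster on mouse chromosome 6, from 48647234 to 48770851 (GRCm38, GENCODE M21), a span of 123.6 kb. In chromosome order they are Gimap8, Gimap9, Gimap4, Gimap6, Gimap7, Gimap1, Gimap5 and Gimap3. The annotation places 6 on the forward strand and 2, Gimap6 and Gimap3, on the reverse strand. Most members encode between 290 and 327 amino acids, and Gimap8 encodes 687. The phosphate-binding loop, the stretch of the GTP-binding domain that holds the phosphates of the nucleotide, is what the family shares, and its coding sequence is shown for each member. Capitals mark the 24 bases (8 codons) of the loop, taken from the coding part of the GENCODE M21 transcripts, 5′ to 3′.
Gimap1: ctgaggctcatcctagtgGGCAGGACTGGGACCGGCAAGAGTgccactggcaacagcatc
Gimap3: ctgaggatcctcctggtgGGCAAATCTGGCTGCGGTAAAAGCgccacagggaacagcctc
Gimap4: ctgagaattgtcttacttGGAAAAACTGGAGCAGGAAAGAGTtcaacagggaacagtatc
Gimap5: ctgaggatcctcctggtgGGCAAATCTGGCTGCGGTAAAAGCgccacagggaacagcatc
Gimap6: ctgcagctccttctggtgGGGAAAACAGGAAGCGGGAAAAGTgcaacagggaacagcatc
Gimap7: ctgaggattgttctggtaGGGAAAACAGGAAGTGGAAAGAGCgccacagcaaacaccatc
Gimap8, loop 1: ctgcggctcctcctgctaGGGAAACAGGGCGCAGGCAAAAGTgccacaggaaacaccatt
Gimap8, loop 2: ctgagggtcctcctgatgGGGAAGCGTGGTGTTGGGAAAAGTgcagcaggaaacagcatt
Gimap8, loop 3: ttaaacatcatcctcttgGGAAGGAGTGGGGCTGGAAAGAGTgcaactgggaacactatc
Gimap9: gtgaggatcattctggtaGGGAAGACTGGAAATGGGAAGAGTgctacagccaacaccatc
Each member holds 1 such loop except Gimap8, which holds 3.

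Gimap3 and Gimap5 form the closest pair, and Gimap3 is the paralog that lies next to Gimap5 in the mouse. Their coding sequences were 88.9% identical. Identity was taken over aligned bases, with gaps left out. The next highest value was 73.3%, for Gimap7 and Gimap8, over 862 aligned bases of the 2064 coding bases of Gimap8. Pairs with this long member are therefore not comparable with the other pairs. The median over all pairs was 60.4%. The longest coding run that Gimap3 and Gimap5 share letter for letter was 140 bases, at bases 175 to 314 of the Gimap3 coding sequence and 187 to 326 of that of Gimap5. It is shown because reads that lie within it belong to either gene.
Gimap3 and Gimap5, shared run: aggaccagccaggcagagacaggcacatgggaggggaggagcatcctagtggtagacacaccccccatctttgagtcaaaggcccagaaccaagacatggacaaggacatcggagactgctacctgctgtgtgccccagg
Of all possible 50-base stretches of the Gimap3 transcripts 7.52% also occur in Gimap5, and of those of Gimap5 4.53% occur in Gimap3. No other pair of members shared any 50-base stretch. The split of reads between Gimap3 and Gimap5 is uncertain to that extent, since the labels do not say how reads with several matches were counted.

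All 8 genes were well expressed in the sorted cells. Their mean levels lay between the 85.5th percentile of the tested genes (Gimap9) and the 98.1st (Gimap4). The family's counts together made up 0.213% and 0.184% of the dKO PD1+Tim3+ libraries and 0.198% and 0.205% of the dKO PD1+Tim3- libraries. They made up 0.236% and 0.227% of the WT PD1+Tim3+ libraries and 0.181% and 0.201% of the WT PD1+Tim3- libraries. Summed over the 8 genes, the level was 1995 ± 128 CPM in dKO PD1+Tim3+, 2033 ± 83.6 CPM in dKO PD1+Tim3-, 2189 ± 21.0 CPM in WT PD1+Tim3+ and 2006 ± 12.9 CPM in WT PD1+Tim3- libraries (SD, n = 2 each). The sum was highest in the 2 WT PD1+Tim3+ libraries, at 2204 and 2174 CPM, and the libraries of the other 3 groups overlapped one another. In bulk libraries, fewer cells that express a gene and less of its RNA per cell cannot be told apart.

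Per kilobase of the principal transcript, and as a mean over all 8 libraries, the members ranked in the order Gimap4 (313 CPM per kb), Gimap6 (272), Gimap3 (137), Gimap7 (111), Gimap1 (92.6), Gimap8 (79.5), Gimap5 (72.7) and Gimap9 (66.5). Gimap4 led in dKO PD1+Tim3+, dKO PD1+Tim3- and WT PD1+Tim3+ libraries, at 311, 301 and 357 CPM per kb. In WT PD1+Tim3- libraries Gimap6 (289 CPM per kb) and Gimap4 (285 CPM per kb) changed places. That order depends on the length used, since before division by length Gimap4 led there too, at 514 against 461 CPM. Gimap1 held the fifth place in 3 groups and the sixth in WT PD1+Tim3-, where it stood at 76.9 CPM per kb below Gimap8 at 79.9. The libraries of Gimap1 and Gimap5 overlapped in that group, as did those of Gimap4 and Gimap6 and of Gimap7 and Gimap1 in dKO PD1+Tim3-, and those of Gimap8, Gimap5 and Gimap9 in dKO PD1+Tim3+. These levels per length assume reads from the whole transcript, which was not checked. With the length of all merged exons the level of Gimap6 was 124 CPM per kb, and Gimap4 stayed first at 308.

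Gimap1 and Gimap7, neighbours in the middle of the cluster, were the members that rose in PD1+Tim3+ cells of WT origin. Gimap1, which mature T and B cells of mice need to survive, stood at 158 and 150 CPM in WT PD1+Tim3+ libraries, against 114 and 116 CPM in WT PD1+Tim3- libraries. Gimap7, whose human counterpart forms dimers that stimulate GTP hydrolysis, stood at 157 and 167 CPM in WT PD1+Tim3+ libraries, against 126 and 127 CPM in WT PD1+Tim3- libraries. For both genes the groups did not overlap. The log2 fold change was 0.42 ± 0.11 (SE) for Gimap1, a 1.34-fold difference, with a 95% interval of 0.17 to 0.67 and an adjusted p of 0.0263. It was 0.35 ± 0.11 for Gimap7, a 1.28-fold difference, with an interval of 0.12 to 0.59 and an adjusted p of 0.0446. The test was edgeR's quasi-likelihood F test with Benjamini-Hochberg adjustment over all tested genes. The p-values set each difference against a spread between these libraries, estimated over all 4 groups and in part over all tested genes.

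Those 2 of 8 members stand beside 17.0% of all tested genes called in the same contrast, of which 1078 were higher and 1145 lower in PD1+Tim3+. Gimap4, a member that speeds the death of mouse T cells once apoptosis has begun, was at 648 and 638 CPM in WT PD1+Tim3+ libraries, against 516 and 512 CPM in WT PD1+Tim3- libraries. Its groups did not overlap either, but its log2 fold change of 0.32 ± 0.12 did not pass (adjusted p = 0.0890). The other 5 members had log2 fold changes between -0.13 and 0.04. Libraries of the 2 groups did not overlap for 5 of 8 members, 3 higher and 2 lower, beside 63.0% of all tested genes. The median log2 fold change was 0.02 over the members and 0.01 over all tested genes.

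The number of members called in the WT contrast varied with the fit, as did the number of all genes called, 2223 with all libraries. Leaving out 1 WT library leaves a group of 1 library, whose spread is then taken from the other groups. In those 4 fits 0 members and between 433 and 1781 of all genes were called, while the log2 fold change of Gimap1 stayed between 0.38 and 0.47 and that of Gimap7 between 0.31 and 0.39. Without dKO PD1+Tim3- replicate 1 or replicate 2, 1 member was called, beside 1897 and 1906 genes. DESeq2 called 0 members and 1216 genes, and limma-voom 3 members and 2373 genes. A fit without scaling factors moved the median of all genes by 0.16 in this contrast. With it all 8 members had positive values, with a median of 0.17 over the members and 0.17 over all genes. Gimap1 and Gimap7 kept a positive value under all 16 alternatives.

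Some marker lists of other cells also differed in that contrast, on library totals without scaling factors. Those factors were 0.901 and 1.01 in WT PD1+Tim3- libraries and 1.07 and 1.05 in WT PD1+Tim3+ libraries. The NK list summed to between 1387 and 1417 CPM in WT PD1+Tim3+ libraries, against 828 and 990 CPM in WT PD1+Tim3- libraries. Nearly all of it was Nkg7, which cytotoxic T cells also express. Klrb1c was present in all 8 libraries, at 5.37 to 15.3 CPM and 465 counts in all. Klra8 had 10 counts over all libraries and Ncr1 had 3. The CD4 T cell list summed to between 2.38 and 2.73 CPM in WT PD1+Tim3+ libraries, against 0.208 and 0.511 CPM in WT PD1+Tim3- libraries. It was nearly all Foxp3, with 69 counts over all libraries, and Cd4 itself had 2. The macrophage list summed to between 11.4 and 12.4 CPM in WT PD1+Tim3+ libraries, against 7.66 and 11.2 CPM in WT PD1+Tim3- libraries. These sums lie so close that with the scaling factors the groups may overlap, so they are not read as a difference. The macrophage list was nearly all Cd68, with 480 counts over all libraries, while Lyz2 had 22, Csf1r 14 and C1qa 7. The endothelial list, mostly Pecam1, was lower, between 25.4 and 28.1 CPM in WT PD1+Tim3+ libraries, against 31.8 and 40.4 CPM in WT PD1+Tim3- libraries. Their part in the values of Gimap1 and Gimap7 was not tested.

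**Figure D1:**
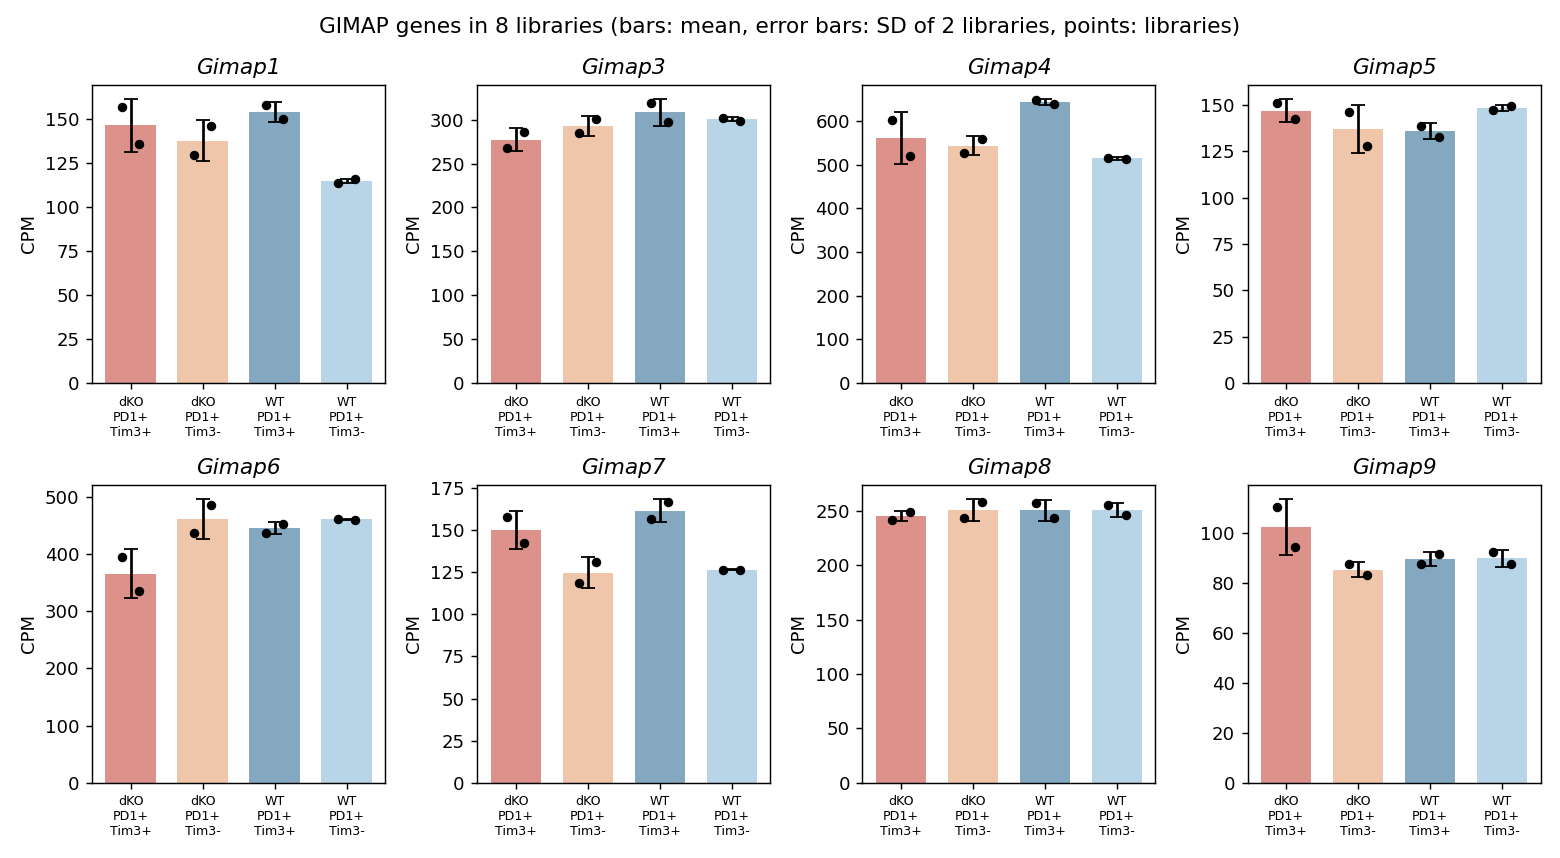
Levels of the 8 GIMAP genes in CPM on TMM-scaled library sizes, with bars for the mean of 2 libraries, error bars for the SD and points for the libraries of each group. Gimap1, Gimap4 and Gimap7 are higher in WT PD1+Tim3+ than in WT PD1+Tim3- libraries, and Gimap8 is nearly level in all 4 groups.

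No member passed the test between the Tim3 fractions of the dKO libraries, where 9.93% of all tested genes did (681 higher, 617 lower). At an unadjusted p under 0.05 edgeR's test gave 3 members, beside 23.7% of all tested genes. DESeq2 and limma-voom called 0 members after adjustment, and their shares of all genes called there are not given here. Gimap6, which binds the autophagy protein GABARAPL2, had the largest difference. It stood at 396 and 335 CPM in dKO PD1+Tim3+ libraries, against 437 and 487 CPM in dKO PD1+Tim3- libraries, without overlap. The log2 fold change was -0.33 ± 0.12, with an interval of -0.61 to -0.06 (adjusted p = 0.126). In WT the same gene stood at 438 and 453 CPM in PD1+Tim3+ libraries, against 462 and 461 CPM in PD1+Tim3- libraries, a log2 fold change of -0.05 ± 0.12 (adjusted p = 0.816).

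Gimap7 was at 158 and 142 CPM in dKO PD1+Tim3+ libraries, against 118 and 131 CPM in dKO PD1+Tim3- libraries. Its log2 fold change there was 0.27 ± 0.11 (adjusted p = 0.162). Gimap9 was at 111 and 94.6 CPM in dKO PD1+Tim3+ libraries, against 87.6 and 83.5 CPM in dKO PD1+Tim3- libraries, with a log2 fold change of 0.26 ± 0.11 (adjusted p = 0.195). Neither gene's groups overlapped. Gimap1 overlapped, at 157 and 136 CPM in dKO PD1+Tim3+ libraries, against 129 and 146 CPM in dKO PD1+Tim3- libraries. Its log2 fold change was 0.10 ± 0.12, with an interval of -0.16 to 0.35. In all, 3 of 8 members did not overlap, 2 higher and 1 lower, beside 50.9% of all tested genes, and the members' median log2 fold change was 0.07.

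**Figure D2:**
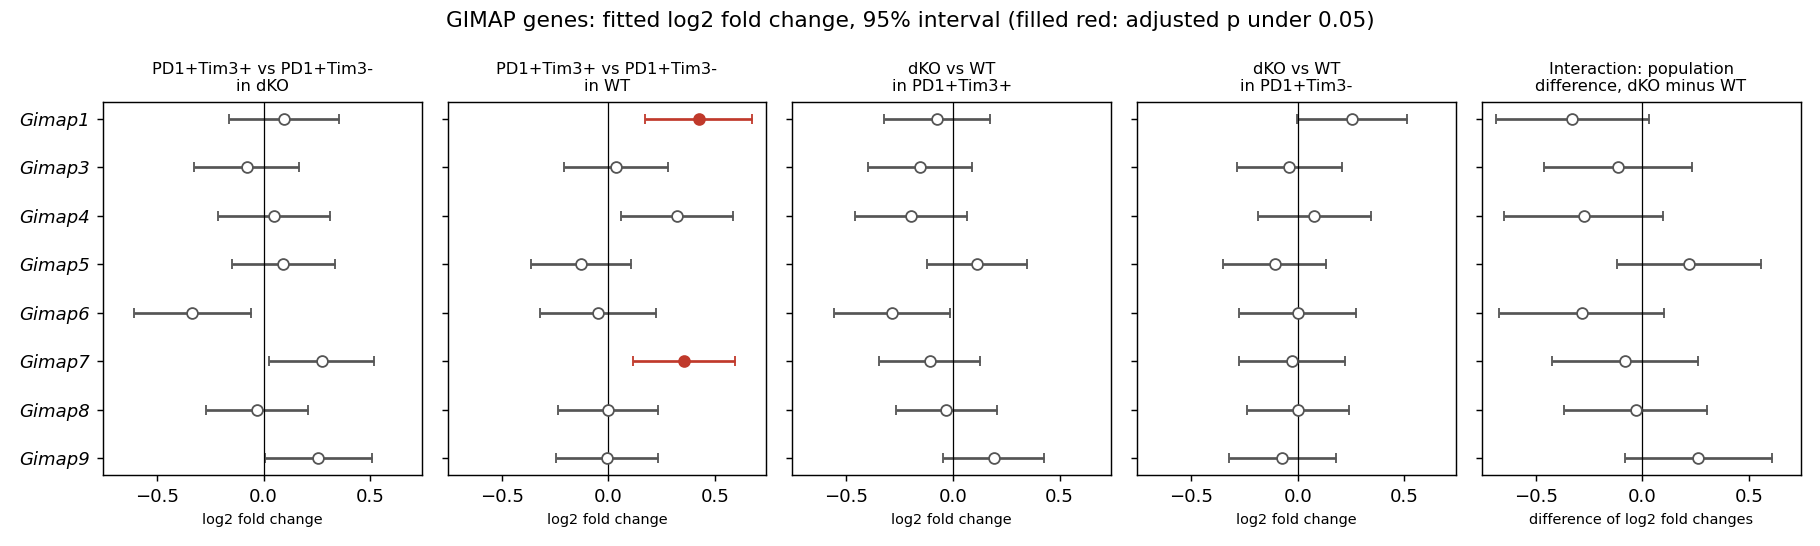
Log2 fold changes of the 8 GIMAP genes in the 4 comparisons and the interaction, as points with 95% intervals from edgeR. In the PD1+Tim3+ against PD1+Tim3- comparison the intervals of Gimap6 (below 0), Gimap7 and Gimap9 (above 0) leave out 0 in dKO, and those of Gimap1, Gimap4 and Gimap7 lie above 0 in WT. Filled red points (Gimap1 and Gimap7 in WT) passed the adjusted threshold, and Gimap8 sits near 0 in every panel.

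Genotype moved no member past the threshold in either fraction. Among PD1+Tim3+ libraries 0 of 8 members were called, beside 0.627% of all tested genes, and 1 member had an unadjusted p under 0.05, beside 12% of all. Gimap6 was that member: its values of 396 and 335 CPM in dKO lay below the 438 and 453 CPM in WT, with a log2 fold change of -0.29 ± 0.12 (adjusted p = 0.384). Gimap4 stood at 603 and 519 CPM in dKO PD1+Tim3+ libraries, against 648 and 638 CPM in WT PD1+Tim3+ libraries. Its log2 fold change was -0.20 ± 0.12, with an interval of -0.46 to 0.07.

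Gimap3, at 268 and 286 CPM in dKO PD1+Tim3+ against 319 and 298 CPM in WT PD1+Tim3+ libraries, also had no overlap (log2 fold change -0.15 ± 0.11). Gimap9 and Gimap5 were the members whose dKO libraries both lay above both WT libraries. Gimap5, the lysosomal member whose loss causes lymphopenia in rats and mice, was at 151 and 142 CPM in dKO PD1+Tim3+ against 139 and 133 CPM in WT PD1+Tim3+ libraries. Gimap9 was at 111 and 94.6 CPM in dKO PD1+Tim3+ against 87.9 and 91.6 CPM in WT PD1+Tim3+ libraries, a log2 fold change of 0.19 ± 0.11. In all 5 of 8 members did not overlap, 2 higher and 3 lower, beside 41.4% of all tested genes. Every member's 95% interval lay between -0.56 and 0.43.

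Among PD1+Tim3- libraries 0 of 8 members were called, beside 0.0459% of all tested genes, and 0 had an unadjusted p under 0.05, beside 8.27% of all. DESeq2 and limma-voom also called 0 members in both genotype comparisons, where their shares of all genes called are not given here. Gimap1 stood furthest from 0, at 129 and 146 CPM in dKO PD1+Tim3- libraries, against 114 and 116 CPM in WT PD1+Tim3- libraries. Its log2 fold change was 0.25 ± 0.12, and its interval of -0.00 to 0.51 ended at 0 (adjusted p = 0.610). The intervals of all members lay between -0.35 and 0.51. Libraries did not overlap for 4 of 8 members, 2 higher and 2 lower, beside 41.3% of all tested genes. The members' median log2 fold change was -0.09 among PD1+Tim3+ and -0.01 among PD1+Tim3- libraries, and all genes had 0.01 and -0.01.

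The difference between the Tim3 contrasts of the 2 genotypes was tested as an interaction, dKO minus WT. edgeR called 0 of 8 members and 0.00% of all tested genes, although 1320 genes had an unadjusted p under 0.05, none of them a member. DESeq2 called 104 genes, limma-voom 0, and neither called a member. Gimap1 had the lowest adjusted p of the members, 0.538, with an interaction of -0.33 ± 0.16 and an interval of -0.69 to 0.03. Gimap4 was at -0.27 ± 0.17, Gimap6 at -0.28 ± 0.18 and Gimap9 at 0.26 ± 0.16. So the rise of Gimap1 and Gimap7 was called in WT and not in dKO, and the difference itself was not called.

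Gimap8, the long member with several GTP-binding domains, was the steadiest over these 8 libraries. It stood at 242 and 249 CPM in dKO PD1+Tim3+, 244 and 258 CPM in dKO PD1+Tim3-, 257 and 244 CPM in WT PD1+Tim3+ and 255 and 246 CPM in WT PD1+Tim3- libraries. The 4 groups overlapped, and the highest library was 1.07 times the lowest. Its counts lay between 492 and 3417 per library, and the part of counting noise in such a ratio was not tested. Among 1758 genes with a mean of at least 100 CPM only Chtop had a smaller ratio, 1.06, and the median ratio was 1.41. The ratio was 1.18 for Gimap5, 1.19 for Gimap3, 1.27 for Gimap4, 1.39 for Gimap1, 1.41 for Gimap7 and 1.45 for Gimap6. Gimap9, whose mean of 92.0 CPM lay below that limit, had 1.32.

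**Figure D3:**
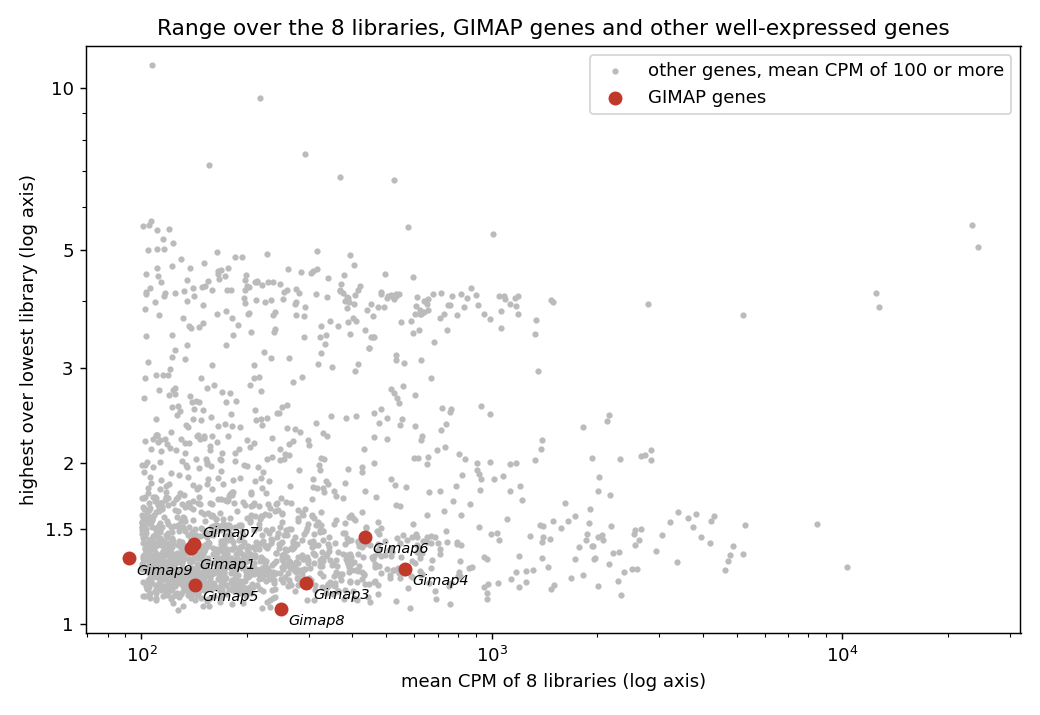
Highest over lowest of the 8 libraries against mean CPM, both on log axes, for genes with a mean of at least 100 CPM (grey) and the GIMAP genes (red). Gimap8 sits at the lower edge with 1.07, and Gimap6 is the highest member with 1.45, beside a median of 1.41 over the genes with at least 100 CPM.

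The members did not move as 1 block. Over the 8 libraries, which all members share, Pearson's r between a member and the mean of the other 7 was 0.94 for Gimap4, 0.72 for Gimap7 and 0.62 for Gimap1. It was 0.09 for Gimap9, -0.02 for Gimap3, -0.04 for Gimap8, -0.22 for Gimap6 and -0.43 for Gimap5. Of the 28 pairs 13 had a positive r. The pairs of Gimap4 with Gimap7 and of Gimap1 with Gimap4 were both at 0.86, and Gimap3 with Gimap9 was the lowest at -0.74. Gimap3 and Gimap5, the pair closest in sequence, had an r of -0.47. These values are descriptions of 8 libraries, in which the differences between members are small.

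**Figure D4:**
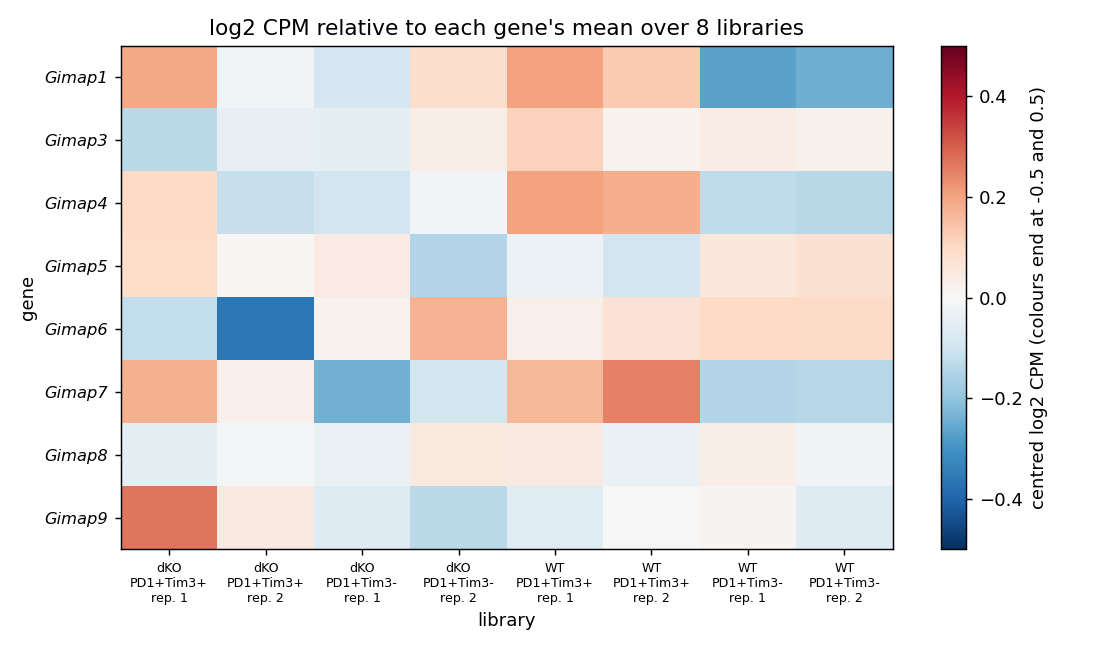
Heat map of log2 CPM minus each gene's own mean over the 8 libraries (red above, blue below the mean), with 1 column per library and 1 row for each of the 8 GIMAP genes. Gimap1, Gimap4 and Gimap7 are high together in WT PD1+Tim3+, and Gimap6 is low in dKO PD1+Tim3+.

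The members' shares of the family's counts are tied to one another, since a larger share of 1 member lowers that of the others. Gimap4 made up 28.1% in dKO PD1+Tim3+, 26.7% in dKO PD1+Tim3-, 29.4% in WT PD1+Tim3+ and 25.6% in WT PD1+Tim3- libraries. Gimap6 made up 18.3% in dKO PD1+Tim3+, 22.7% in dKO PD1+Tim3-, 20.4% in WT PD1+Tim3+ and 23.0% in WT PD1+Tim3- libraries. In WT the level of Gimap6 was 445 ± 10.5 CPM in PD1+Tim3+ and 461 ± 0.83 CPM in PD1+Tim3- libraries (SD, n = 2 each), and its difference was not called.

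Among 6336 other genes with a mean of at least 20 CPM, those most like the mean of the 8 members over the libraries included Arl8b (r = 0.98), Isy1 (0.98), Gmppa (0.97), H2-T22 (0.96) and Napa (0.96). As the values above show, that mean follows Gimap4, Gimap7 and Gimap1 more than the other members. Arl8b encodes a GTPase that positions lysosomes. The most opposed were Ptma (-0.98), Sltm (-0.97) and Ddx50 (-0.97). H2-T22, a non-classical class I gene, shows the shape: it averaged 178 ± 37.3 CPM in dKO PD1+Tim3+, 165 ± 1.21 CPM in dKO PD1+Tim3-, 218 ± 12.2 CPM in WT PD1+Tim3+ and 150.0 ± 2.22 CPM in WT PD1+Tim3- libraries (SD, n = 2 each).

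Antisense to Gimap1 lies Gimap1os (48738346 to 48741444, reverse strand), a gene outside the family that overlaps Gimap1. It stood at 23.6 and 25.3 CPM in dKO PD1+Tim3+, 16.5 and 14.2 CPM in dKO PD1+Tim3-, 30.4 and 26.5 CPM in WT PD1+Tim3+ and 24.9 and 21.8 CPM in WT PD1+Tim3- libraries. It rose in the dKO Tim3 contrast, by 0.64 ± 0.17 on the log2 scale (adjusted p = 0.0360), and its value in WT was 0.26 ± 0.13 (adjusted p = 0.207). The labels do not say whether strand was used in counting, so reads of the overlap cannot be assigned to Gimap1 or Gimap1os with certainty. Gm28053, annotated as protein-coding from 48718607 to 48752644, overlaps Gimap7, Gimap1 and Gimap5 and was not in the table. How reads that match both it and a member were counted is not stated.

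Within 300 kb of either end of the cluster the annotation lists 43 genes outside the family, of which 17 were in the table and 10 were tested. Of these 3 were called in any contrast, Gimap1os and, outside the cluster, Tmem176b and Tmem176a. The Tmem176 genes encode membrane proteins of intracellular vesicles and lie 63.0 and 70.1 kb after the end of the cluster. Tmem176b averaged 16.3 ± 0.70 CPM in dKO PD1+Tim3+ against 3.39 ± 1.09 CPM in dKO PD1+Tim3- libraries, and 7.51 ± 0.28 CPM in WT PD1+Tim3+ against 2.21 ± 0.10 CPM in WT PD1+Tim3- libraries (SD, n = 2 each). It rose in PD1+Tim3+ cells by 2.12 ± 0.25 on the log2 scale in dKO (adjusted p = 6.48e-04) and by 1.78 ± 0.26 in WT (adjusted p = 0.00214). Among PD1+Tim3+ libraries it was also higher in dKO than in WT, by 1.11 ± 0.18 (adjusted p = 0.0266). Tmem176a rose by 2.42 ± 0.38 in dKO and by 2.22 ± 0.40 in WT in the Tim3 contrast.

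**Figure D5:**
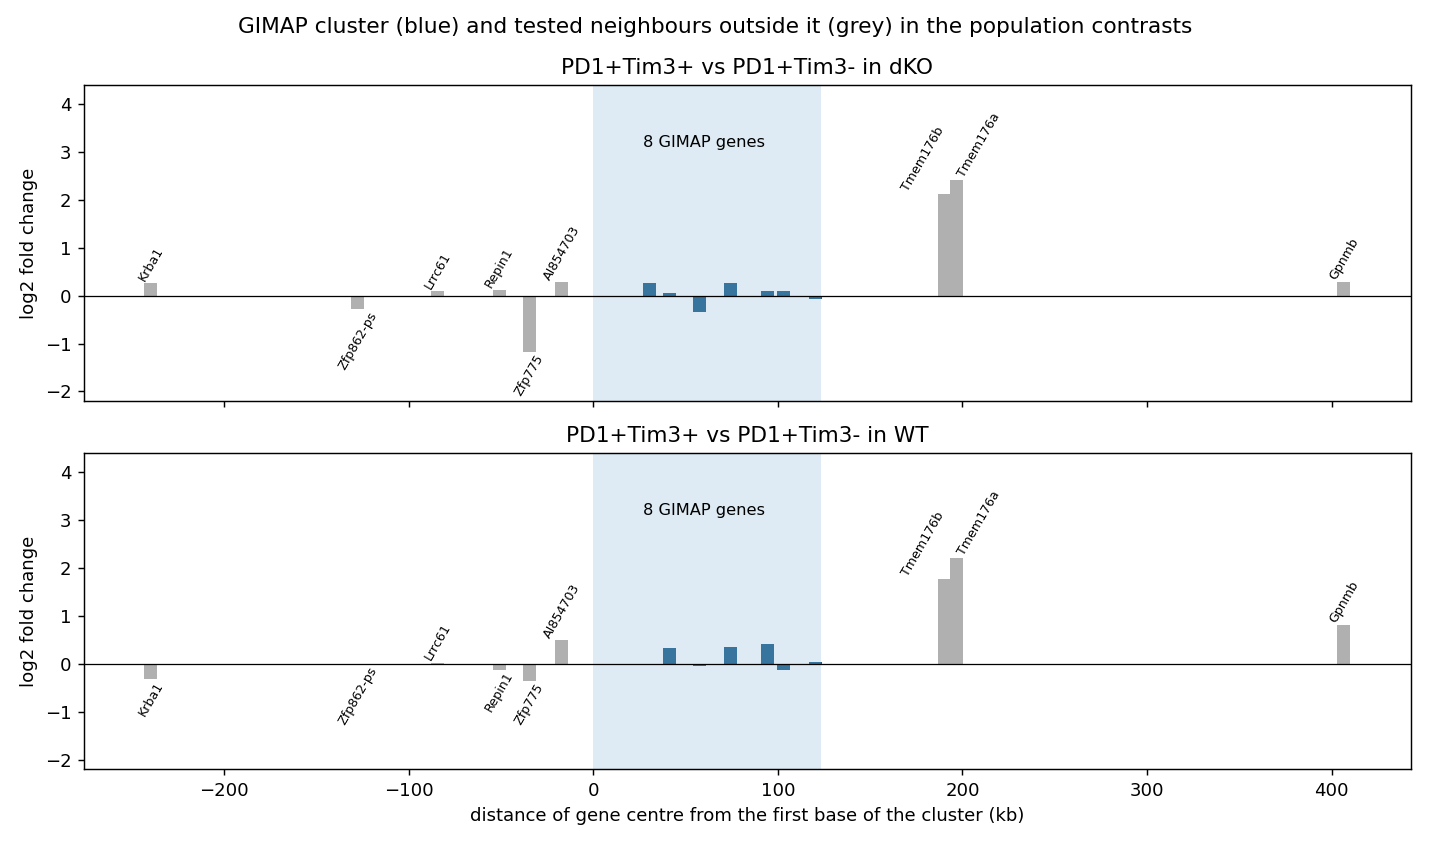
Log2 fold changes of PD1+Tim3+ against PD1+Tim3- for the GIMAP genes (blue) and their tested neighbours outside the cluster (grey), by distance of the gene's centre from the first base of the cluster in kb, dKO above WT. Tmem176b and Tmem176a stand at 2.12 and 2.42 in dKO, while every GIMAP gene lies between -0.33 and 0.42 in both panels.

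The promoters, 250 bases before to 50 bases after each RefSeq start (GRCm38.p6), were searched on both strands for 7 motifs. AAGGTCA, the core that NR4A proteins and other nuclear receptors bind, occurred in the window of Gimap4 only and in 4.72% of all 32851 promoters. The match is shown in capitals with the bases around it, chr6:48684588-48684617 on the forward strand, and its first base lies 22 bases after the start.
Gimap4: cgaaatcagagAAGGTCAaaggacccagat
As given above, Gimap4 had a log2 fold change of -0.20 ± 0.12 between dKO and WT among PD1+Tim3+ libraries and 0.08 ± 0.12 among PD1+Tim3- libraries, neither called. CAGGAAG (ETS) occurred in the windows of Gimap3, Gimap5 and Gimap9 and in 13.3% of all promoters. GTAAACA (FOXO) occurred in that of Gimap3 and in 3.65% of all, and CCACACC (KLF) in that of Gimap3 and in 7.58% of all. CTTTGAT (TCF/LEF, 3.73% of all), TGTGGTT (RUNX, 5.27%) and TGACTCA (AP-1, 5.20%) were not in these windows. The motifs share no bases in these windows, and a match is a description of letters.

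The promoters of Gimap3 and Gimap5 are printed because these 2 genes share most of their coding sequence. The 250 bases before the start are given 5′ to 3′ on each gene's own strand, with the motif matches in capitals (GGTGTGG is CCACACC on the other strand). They lie at chr6:48770852-48771101 on the reverse strand for Gimap3 and at chr6:48745947-48746196 on the forward strand for Gimap5.
Gimap3: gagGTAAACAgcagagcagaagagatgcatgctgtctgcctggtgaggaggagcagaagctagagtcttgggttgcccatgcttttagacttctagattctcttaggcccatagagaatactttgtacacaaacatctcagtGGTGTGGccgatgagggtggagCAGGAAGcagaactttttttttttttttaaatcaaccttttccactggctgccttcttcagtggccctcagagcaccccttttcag
Gimap5: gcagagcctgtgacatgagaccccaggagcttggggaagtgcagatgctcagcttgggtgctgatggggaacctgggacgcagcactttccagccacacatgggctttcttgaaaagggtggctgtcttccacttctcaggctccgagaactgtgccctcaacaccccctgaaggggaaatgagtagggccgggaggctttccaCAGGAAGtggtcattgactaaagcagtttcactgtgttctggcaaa
Over 252 aligned bases they were 59.5% identical, against 88.9% for the coding sequences. Gimap3 stood at 285 and 301 CPM in dKO PD1+Tim3- and 302 and 299 CPM in WT PD1+Tim3- libraries. Gimap5 stood at 146 and 128 CPM in dKO PD1+Tim3- and 147 and 149.7 CPM in WT PD1+Tim3- libraries. Neither gene was called in any comparison.

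The genes that act on T cell survival beside the GIMAP family were counted in the same fits, with the shares of all genes called given above. Of 17 tested genes of the interleukin-7 receptor and BCL2 list, 4 rose and 1 fell in dKO PD1+Tim3+ against dKO PD1+Tim3-, and 4 rose and 1 fell in WT PD1+Tim3+ against WT PD1+Tim3-. Bcl2l1, which encodes the survival protein BCL-XL, rose by 0.58 ± 0.13 on the log2 scale in dKO and by 0.68 ± 0.12 in WT. Bak1, a pore-forming protein of apoptosis, rose by 0.66 ± 0.14 in dKO and by 0.77 ± 0.13 in WT. Members with opposite roles thus rose together. Il7r, the interleukin-7 receptor chain, fell by 0.48 ± 0.12 in the WT contrast (adjusted p = 0.0184). Among PD1+Tim3+ libraries it averaged 200.2 ± 9.80 CPM in dKO and 116 ± 11.4 CPM in WT (SD, n = 2 each), a log2 difference of 0.80 ± 0.12 (adjusted p = 0.0136). The list's median log2 fold change was 0.01 in dKO and 0.19 in WT.

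Of 18 tested genes of the naive and quiescent state, 8 fell and 1 rose in dKO PD1+Tim3+ against dKO PD1+Tim3-, and 8 fell and 1 rose in the same contrast of WT. Tcf7, which encodes the transcription factor TCF1, averaged 174 ± 3.39 CPM in dKO PD1+Tim3+ against 318 ± 14.5 CPM in dKO PD1+Tim3-, and 204 ± 2.05 CPM in WT PD1+Tim3+ against 357 ± 21.6 CPM in WT PD1+Tim3- libraries (SD, n = 2 each). It fell by 0.87 in dKO and by 0.80 in WT on the log2 scale. Of the 8 GIMAP genes 0 were called lower in these contrasts, beside 617 (dKO) and 1145 (WT) of all 13073 tested genes. With so few members that count is near the share over all genes. Ccr7, a chemokine receptor of lymph node homing, fell by 1.39 ± 0.11 on the log2 scale in dKO against WT among PD1+Tim3+ libraries (adjusted p = 2.85e-04). The list's median log2 fold change in the Tim3 contrast was -0.17 in dKO and -0.19 in WT.

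Of 11 tested genes of the list of autophagy partners and GSK3 kinases, 1 rose in the dKO contrast and 3 in the WT contrast, and none fell. Gabarapl2, the partner of Gimap6, averaged 141 ± 11.1 CPM in dKO PD1+Tim3+ against 89.3 ± 0.88 CPM in dKO PD1+Tim3- libraries (SD, n = 2 each). It rose there by 0.66 ± 0.11 on the log2 scale (adjusted p = 0.00498), while the value of Gimap6 was -0.33 ± 0.12. In WT it rose by 0.37 ± 0.10 (adjusted p = 0.0312), while the value of Gimap6 was -0.05 ± 0.12. Sqstm1 and Gabarapl1 also rose in WT, by 0.67 and 0.74. Neither genotype comparison called a gene of this list in PD1+Tim3+ or PD1+Tim3- libraries. The list's median log2 fold change in the Tim3 contrast was 0.11 in dKO and 0.19 in WT.

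The 3 erythroid genes (Hba-a1, Hbb-bs and Alas2) summed to between 17.3 and 63.5 CPM in dKO PD1+Tim3+, 1.45 and 1.54 CPM in dKO PD1+Tim3-, 3.20 and 20.04 CPM in WT PD1+Tim3+ and 1.25 and 4.09 CPM in WT PD1+Tim3- libraries. They were thus highest in the group where Gimap6 was lowest, and their part in the result was not tested.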

How the data were processed

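RNA was sequenced from 8 sorted CD8 T cell libraries. The deposited table holds raw counts per gene. Per the submitters' processing notes, cutadapt 1.18 and Bowtie2 2.2.5 were used with mm10. The counting tool, gene annotation, strand setting and treatment of multiply mapping reads are not stated in the labels or headers. A last line with no gene name held the column totals and was left out, as it would double each library.

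Counts were fitted in R 4.3.3 with edgeR 4.0.16 (TMM scaling, filterByExpr with a minimum count of 10, quasi-likelihood F test) on 4 group means and all 8 libraries, with 4 residual degrees of freedom. A gene was called when its p, adjusted by Benjamini-Hochberg over 13073 genes, lay under 0.05. CPM values use the TMM-scaled totals, except those of the cell type marker genes and lists, which use unscaled totals. The ± is SD for levels and SE for log2 fold changes. The alternatives were DESeq2 1.42.0, limma-voom 3.58.1, other scalings and filters, a replicate block and leaving out each library. Averaged over genes, replicates of a group differed by more than counting noise (chi-square per gene 3.10 to 16.1), and this was not measured for the members alone.

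Every member is named, lists are given by counts with values of called members, and genes most like (of the top 6) and the 3 most opposed to the family's mean are named. Some genes are not reported here. Members, lists, neighbours and motifs were chosen with earlier results of these data known. Positions, transcripts and lengths come from GENCODE M21 (GRCm38), promoters from RefSeq (GRCm38.p6), and matching was by symbol. Chtop and Gimap1os were named after their values were seen.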

Additional observations from a re-analysis of the deposited data

How the results depend on the processing

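Between PD1+Tim3+ and PD1+Tim3- libraries of WT, 2 members were called. The count was 1 with DESeq2's size factors in edgeR (RLE), 1 without the low-count filter and 0 with DESeq2. Shares of all genes called in the size-factor, unfiltered and block fits are not given here. These counts can therefore not be read as a trait of the members. With replicate number as a block the count was 0. The numbers are not stated to pair samples, and deviations of same-numbered libraries did not go together (r = -0.05 within dKO and -0.02 within WT). Leaving out each library in turn gave between 0 and 3. Gimap1 was called in 10 of 16 alternatives (log2 0.38 to 0.58, adjusted p 0.00941 to 0.166), Gimap7 in 6 (0.31 to 0.51, adjusted p 0.0160 to 0.254) and Gimap4 in 3. The cause was not tested. In the other 4 comparisons no alternative called a member, and for most of those fits the share of all genes called is not given here. Fitting without scaling factors was chosen after seeing the data. The SE of a member's log2 fold change was 0.11 to 0.12 in the 4 comparisons. Replicates differed by more than counting noise only as an average over genes, which does not show what sets the SE of the members.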
